A study of Homo sapiens with 4 samples.

Results

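The tetraspanin genes CD9, CD63, CD81, CD82, CD151, TSPAN3, TSPAN4, TSPAN14 and TSPAN15 were examined in EA.hy926 cells, a hybrid human line with endothelial cells of the umbilical vein and a lung carcinoma line as its parents. These are 9 of the 33 human tetraspanin genes, and 9 of the 62443 genes with values. They were chosen from a list of gene symbols with the difference between miR-187 and control cells already known, so their differences are given as a description with no test. Cells received miR-187 or the control miRNA miR-NC, and 2 libraries of mRNA were sequenced for each group. The paper describes these cells as transfected with miR-187, and its methods describe miRNA mimics delivered by lipid transfection. The level of miR-187 reached in these libraries is not given. Nothing says that the 2 libraries of a group came from separate cultures, and the spread between them may be technical. Levels are in FPKM, a fragment level corrected for transcript length and for the mapped total of each library.

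Tetraspanins are small membrane proteins that cross the membrane several times and gather integrins, proteases and signalling receptors into microdomains. CD9, CD81 and CD63 are common on extracellular vesicles, and CD63 also cycles through late endosomes and the Weibel-Palade bodies of endothelial cells. CD82, also known as KAI1, is known as a suppressor of metastasis and restrains cell migration. CD151 binds laminin-binding integrins and has been linked to angiogenesis in mice. TSPAN14 and TSPAN15 belong to the TspanC8 subgroup, which carries the metalloprotease ADAM10 to the cell surface. TSPAN4 is abundant on migrasomes, vesicles left behind by migrating cells.

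A miRNA lowers mRNAs that hold matches to its seed, which usually lie in the 3' UTR. The mature miR-187-3p and every match to its seed in the 3' UTRs of the 9 genes are shown, because they bear on which of these transcripts the miRNA could pair with. Capitals mark the seed (bases 2 to 8) in the miRNA and the matching bases in the sites.
hsa-miR-187-3p: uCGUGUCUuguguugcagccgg
CD82, 6mer: gccctaggGACACGgcctaggg
TSPAN3, 7mer-A1: taaaggagGACACGAgcctgctt
TSPAN3, 7mer-m8: aatggagaAGACACGggaaagga
TSPAN14, 7mer-m8: aggcggtgAGACACGtgggtgct

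A 6mer site is GACACG. A 7mer-m8 site is AGACACG and a 7mer-A1 site is GACACGA. All 9 genes had an annotated 3' UTR, and 2 of the 9 held a 7-mer site, against 3.53% of the 7074 tested genes with a 3' UTR. These 2 genes have the longest 3' UTRs of the 9. The 3.53% was not matched for 3' UTR length, so the comparison does not show an excess of sites. TSPAN3 holds its pair of sites in a 3' UTR of 5431 bases on chromosome 15, at 77046543 to 77046549 and 77045035 to 77045041 of the minus strand (GRCh38, GENCODE 29). TSPAN14 holds 1 site in a 3' UTR of 15147 bases on chromosome 10, at 80526680 to 80526686 of the plus strand. A 7-mer match lay in only 1 of the 10 annotated TSPAN14 transcripts, and in 7 of the 10 of TSPAN3. CD82 holds only the 6mer, at 44620024 to 44620029 of chromosome 11 on the plus strand, in a 3' UTR of 1237 bases. The other 6 genes hold none of these letters in the 3' UTR searched. A match describes the sequence and does not show that the miRNA binds there.

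CD9 and CD63 carried most tetraspanin RNA in these cells. The 9 genes made up 98.8% and 98.9% of the FPKM of all 33 tetraspanins with miR-187, against 98.3% and 98.0% with miR-NC. CD63 was the higher of the pair with miR-187 and CD9 with miR-NC. TSPAN3 and TSPAN4 came next in both groups. CD82 took place 7 of the 9 with miR-187, below CD81 and CD151, and place 5 with miR-NC, above both. TSPAN14 and TSPAN15 were the lowest in both groups. With miR-187, CD82 (10.3 to 10.8 FPKM) lay below CD81 (13.7 to 14.9 FPKM), whereas with miR-NC the ranges of CD82 and CD81 came close to each other (38.4 to 41.0 and 28.9 to 38.0 FPKM).

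**Figure D1:**
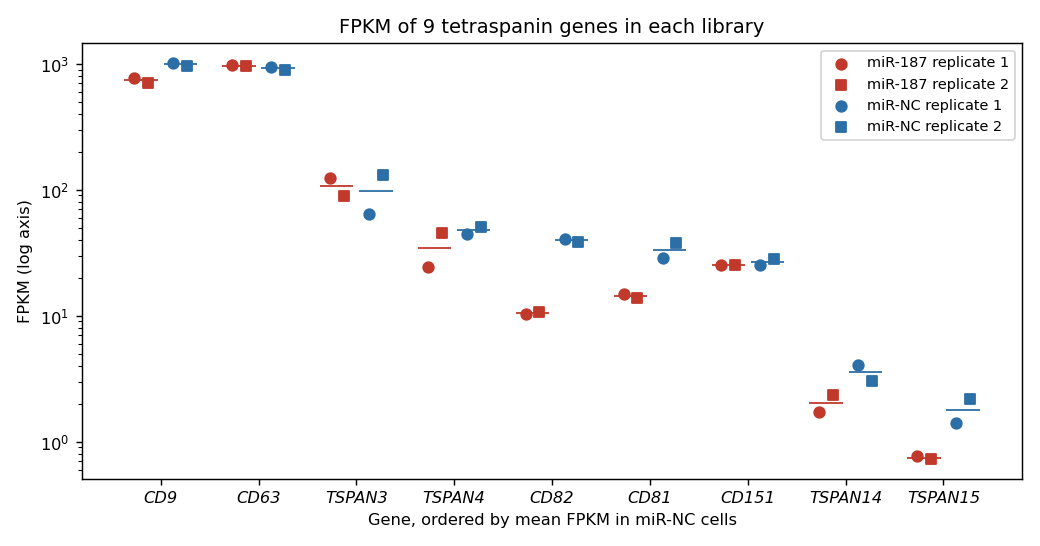
FPKM (log axis) of the 9 tetraspanin genes, with 1 point per library and short lines at the group means (n = 2 libraries each). CD82 stood at 10.3 and 10.8 FPKM with miR-187, against 41.0 and 38.4 FPKM with miR-NC, while the points of CD63 and CD151 lay close together.

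The libraries also differed as a whole, so each difference is set beside that of all genes. On the log2(FPKM + 1) scale the median of the 8196 tested genes was -0.39, miR-187 minus miR-NC, and median-of-ratios scaling moved it to -0.01. FPKM summed to 763221 and 748075 with miR-187, against 736702 and 739377 with miR-NC, and the 100 most abundant genes took 69.8% and 70.2% of it with miR-187, against 64.2% and 61.7% with miR-NC. Library depth is unknown. The median of the 9 genes was -0.50, and -0.03 after median-of-ratios scaling. Of the 9 genes, 5 were lower with miR-187 without overlap between the groups, 1 was higher without overlap and 3 overlapped. Over all tested genes 65.4% were lower and 5.93% higher without overlap. All 9 passed the filter on low values, TSPAN15 only through its miR-NC libraries.

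CD82 had the largest difference of the 9. It read 10.3 and 10.8 FPKM in miR-187 cells, against 41.0 and 38.4 FPKM in miR-NC cells. Both miR-187 libraries were far below both miR-NC libraries, and replicates lay close together in each group. The means were 10.5 ± 0.312 FPKM with miR-187 and 39.7 ± 1.82 FPKM with miR-NC (SD, n = 2 each), a ratio of 0.265. The difference on the log2(FPKM + 1) scale was -1.82, which put CD82 at rank 22 from the lowest among the 8196 tested genes. That scale understates differences of low genes, so genes with a larger proportional fall can rank behind CD82. Median-of-ratios scaling gave a difference of -1.36 for CD82. With each library left out in turn it stayed between -1.86 and -1.77. On chromosome 11 (GRCh38), CD82 occupies positions 44564427 to 44620363 of the plus strand. The antisense gene CD82-AS1 (ENSG00000254693) shares 280 exonic bases with it and was listed at 0 in all 4 libraries.

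CD81, a partner of CD9 in the same microdomains, was the next lowest on the log2(FPKM + 1) scale. It read 14.9 and 13.7 FPKM with miR-187, against 28.9 and 38.0 FPKM with miR-NC. The groups did not overlap, and the miR-NC libraries lay further apart than the miR-187 libraries. The means were 14.3 ± 0.883 FPKM with miR-187 and 33.5 ± 6.42 FPKM with miR-NC (SD, n = 2 each), a ratio of 0.427. The difference was -1.16 on the log2(FPKM + 1) scale and -0.69 after median-of-ratios scaling. The antisense gene CD81-AS1 overlaps CD81 over 30 exonic bases and was listed at 0 in all 4 libraries.

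CD9, which associates with the growth factor precursor HBEGF and with CD81, read 773 and 701 FPKM with miR-187, against 1012 and 968 FPKM with miR-NC. The groups did not overlap. The means were 737 ± 50.7 FPKM with miR-187 and 990 ± 30.9 FPKM with miR-NC (SD, n = 2 each). The difference of -0.43 on the log2(FPKM + 1) scale lay near the median gene, and median-of-ratios scaling turned it above 0 (0.06).

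CD63 read 973 and 955 FPKM with miR-187, against 951 and 895 FPKM with miR-NC. Its miR-187 libraries were slightly above both miR-NC libraries, with a ratio of the means of 1.04. Its difference was 0.06 on the log2(FPKM + 1) scale and 0.55 after median-of-ratios scaling. CD63-AS1 (ENSG00000258056), which overlaps it on the other strand over 237 exonic bases, read 1.94 and 1.35 FPKM with miR-187, against 1.74 and 1.55 FPKM with miR-NC, a small level beside that of CD63. The sources do not state that strand was used in counting, so reads of a gene and its antisense partner cannot be told apart.

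CD151 read 25.3 and 25.2 FPKM with miR-187, against 25.2 and 28.3 FPKM with miR-NC. The groups overlapped. The difference was -0.08 on the log2(FPKM + 1) scale and was above 0 after median-of-ratios scaling (0.39) and quantile normalization (0.33). The level of CD151 carries a limit. Its exons share 257 bases with POLR2L on the other strand, the gene of an RNA polymerase subunit, which read 1818 and 1708 FPKM with miR-187, against 1990.4 and 1655 FPKM with miR-NC. What share of the reads assigned to CD151 came from POLR2L was not tested.

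Replicates disagreed for TSPAN3 and TSPAN4. TSPAN3, a broadly expressed member, read 124 and 88.6 FPKM with miR-187, against 64.6 and 131 FPKM with miR-NC, so its miR-187 values fell between its miR-NC values. Its difference of 0.18 on the log2(FPKM + 1) scale changed sign with the library left out. It was -0.06 when miR-187 replicate 1 was omitted, -0.32 without replicate 1 of miR-NC and 0.69 without its replicate 2. TSPAN3 is thus the member with a pair of 7-mer sites, and its groups overlapped. TSPAN4 read 24.5 and 45.0 FPKM with miR-187, against 44.5 and 50.9 FPKM with miR-NC. One miR-187 library was low and the other lay inside the miR-NC range. The difference was -0.50 on the log2(FPKM + 1) scale, -0.08 without miR-187 replicate 1 and -0.93 without replicate 2. Median-of-ratios scaling gave -0.03.

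The TspanC8 members were close to the filter. TSPAN14 holds a 7-mer site in 1 of its 10 annotated transcripts. It read 1.72 and 2.35 FPKM with miR-187, against 4.07 and 3.02 FPKM with miR-NC. TSPAN15 read 0.762 and 0.730 FPKM with miR-187, against 1.41 and 2.16 FPKM with miR-NC. Neither gene overlapped between groups. Their differences were -0.58 and -0.66 on the log2(FPKM + 1) scale and -0.23 and -0.39 after median-of-ratios scaling. With a pseudocount of 0.1 in place of 1 they were -0.77 and -1.13, since the pseudocount of 1 weighs heavily at these levels. TSPAN15 no longer passed the filter when a miR-NC library was omitted. TSPAN14-AS1 overlaps TSPAN14 over 235 exonic bases on the other strand and reached at most 0.765 FPKM.

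**Figure D2:**
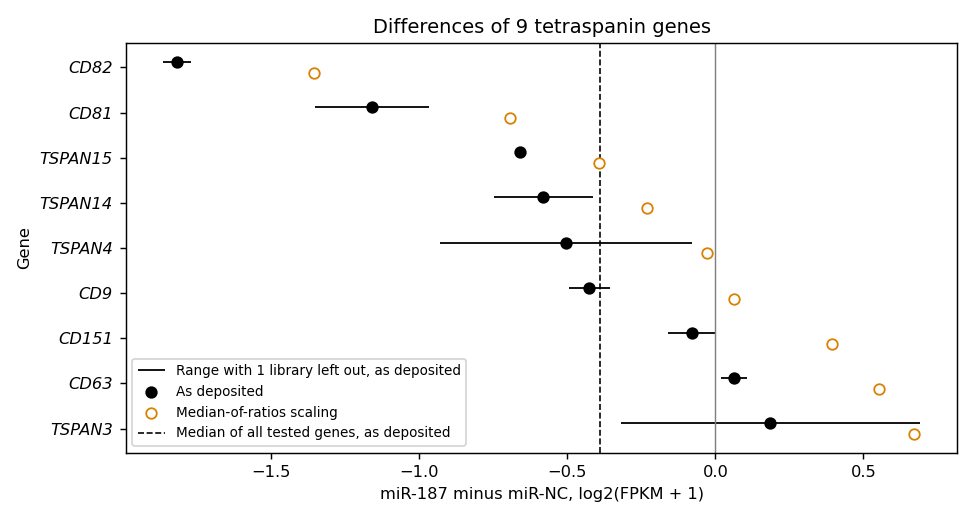
Differences of the 9 genes, miR-187 minus miR-NC on the log2(FPKM + 1) scale, as deposited (filled) and after median-of-ratios scaling (open). Horizontal lines span the values with 1 library left out (TSPAN15 had values only without a miR-187 library), and the dashed line marks the median of all tested genes (-0.39). CD82 and CD81 lay lowest under both scalings, whereas CD9 and CD151 were below 0 as deposited and above 0 after median-of-ratios scaling.

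Ratios between transcripts of the same library do not change when a library is scaled by a common factor. Quantile normalization can change them. Per 100 FPKM of CD63, CD82 stood at 1.06 and 1.13 with miR-187, against 4.31 and 4.29 with miR-NC. Per 100 FPKM of CD9 it stood at 1.33 and 1.53 with miR-187, against 4.05 and 3.97 with miR-NC. CD82 was thus lower beside both abundant members. Relative to the median gene, the log2(FPKM + 1) differences were 0.45 for CD63, -0.04 for CD9 and -1.43 for CD82. The median gene thus also lay lower beside CD63, by less than CD82 did. The ratio of CD9 to CD63 was 0.795 and 0.735 with miR-187, against 1.06 and 1.08 with miR-NC. CD81 per 100 FPKM of CD63 was 1.54 and 1.43 with miR-187, against 3.04 and 4.25 with miR-NC. The ratio of CD82 to CD81 was 0.691 and 0.786 with miR-187, against 1.42 and 1.01 with miR-NC. CD151 per 100 FPKM of CD63 was 2.60 and 2.64 with miR-187, against 2.65 and 3.16 with miR-NC, a smaller gap than those of CD82 and CD81. The differences of the 9 genes were thus unequal. In these bulk libraries, fewer cells that express a gene and less RNA per cell cannot be told apart.

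**Figure D3:**
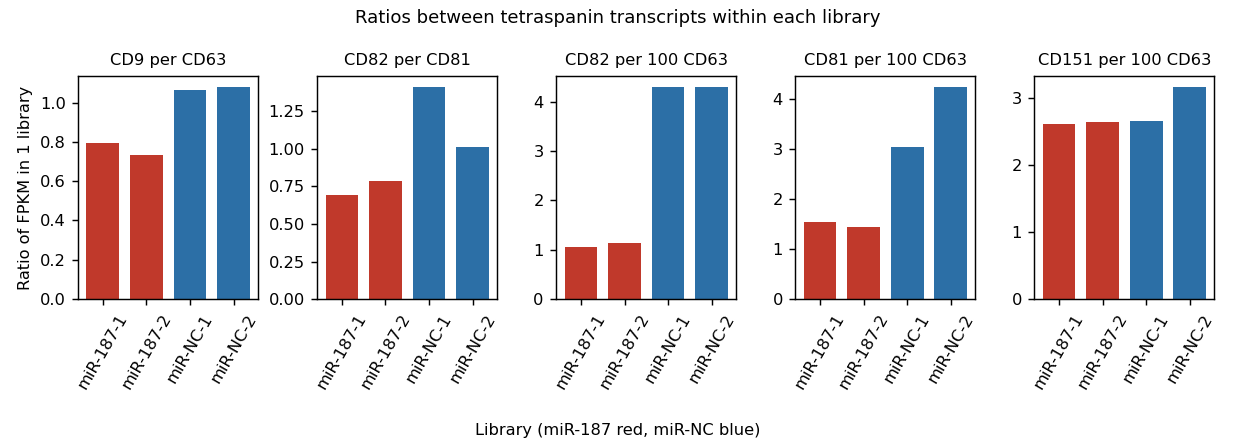
Ratios of FPKM between tetraspanin transcripts within each library (bars, 1 per library, axes from 0, miR-187 left of miR-NC). CD82 per 100 CD63 was 1.06 and 1.13 with miR-187, against 4.31 and 4.29 with miR-NC, while CD151 per 100 CD63 was between 2.60 and 3.16 in all libraries.

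The 9 genes lie on few chromosomes. In all, 4 are on chromosome 11, 2 on chromosome 12, 2 on chromosome 10 and 1 on chromosome 15. CD151 (832843 to 839831) and TSPAN4 (842808 to 867116) are neighbours on the plus strand of chromosome 11, with 2976 bases between them (GRCh38). CD81 lies further along, 57976 bases from the tetraspanin gene TSPAN32, which was listed at 0 in all 4 libraries. CD82 lies 106101 bases from TSPAN18, which was also listed at 0 in all 4 libraries. The neighbours of CD82 and CD81 within the family were thus not detected here. Of the 9 genes, 6 matched a promoter in RefSeq (GRCh38.p14, 300 bases around the start). The motif GGGCGG, searched on both strands, was present in 5 of these 6 promoters, CD9 being the exception, against 45.0% of 35116 promoters. The 5 promoters with the motif held 69.0% to 85.7% GC and that of CD9 55.3%, against 58.7% for all promoters. The 45.0% was not matched for GC content, so the motif cannot be read as a trait of these genes.

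To see whether the rest of the family moved likewise, the other 24 tetraspanin genes were examined in the fit over all genes (limma, Benjamini-Hochberg adjustment over 8196 tested genes). In that fit 27.3% of all tested genes were called lower and 1.49% higher with miR-187. Of the 24 genes, 8 were tested, and 4 of these fell, 0 rose (0 at an unadjusted p under 0.05) and 4 did not pass. Their median difference was -0.63 on the log2(FPKM + 1) scale, beside -0.39 over all tested genes. TSPAN12 and CD53, 2 of the 4 that fell, reached 1 FPKM in the miR-NC libraries only, and over the other 6 tested genes 2 fell and the median was -0.55. Of the 16 not tested, 8 were listed at 0 in all 4 libraries and none exceeded 1.17 FPKM in any library.

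TSPAN1, a member best known from epithelia, fell to 8.49 and 6.77 FPKM with miR-187, against 16.1 and 18.2 FPKM with miR-NC. Its log2 difference was -1.08 ± 0.20 (SE, limma adjusted p = 0.00265). Both miR-187 libraries were below both miR-NC libraries, and it also passed after median-of-ratios scaling (-0.63, limma adjusted p = 0.0451). TSPAN5, a TspanC8 member, fell to 0.543 and 1.03 FPKM with miR-187, against 2.13 and 2.72 FPKM with miR-NC (-0.95 ± 0.24, SE, limma adjusted p = 0.0124). It was the only tetraspanin with an 8mer site, AGACACGA, in the 3' UTR searched, at 98470599 to 98470606 of chromosome 4 on the minus strand. A match of 7 or more bases lay in 2 of its 10 annotated transcripts. Of the 24 other tetraspanins, 2 held such a match in the 3' UTR searched, TSPAN5 and TSPAN9. TSPAN9, with a 7mer-m8 and a 6mer site, read 0.424 and 0.845 FPKM with miR-187, against 0.746 and 1.17 FPKM with miR-NC. Its groups overlapped and it was not tested. Whether the site had a part in the fall of TSPAN5 was not tested.
TSPAN5, 8mer: catggagaAGACACGAgctctctc

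TSPAN12, which takes part in Norrin signalling in retinal vessels, read 0.527 and 0.378 FPKM with miR-187, against 1.16 and 1.87 FPKM with miR-NC (-0.78 ± 0.22, SE, limma adjusted p = 0.0209). CD53, a leukocyte tetraspanin, read 0.669 and 0.629 FPKM with miR-187, against 1.76 and 1.44 FPKM with miR-NC (-0.66 ± 0.21, SE, limma adjusted p = 0.0361). Both genes passed the filter only through their miR-NC libraries, so they could enter the test only by being higher there. Among leukocyte markers PTPRC was listed at 0 in all 4 libraries, whereas the lysozyme gene LYZ read 2.01 and 1.65 FPKM with miR-187, against 3.95 and 4.99 FPKM with miR-NC (-0.95, limma adjusted p = 0.0140). LYZ did not pass when miR-187 replicate 1 (limma adjusted p = 0.0675), miR-187 replicate 2 (0.167) or miR-NC replicate 2 (0.0624) was left out, nor with median-of-ratios scaling (0.0750). The part of LYZ in the difference of CD53 was not tested.

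The remaining tested genes did not pass. TSPAN6 had a difference of -0.61 (limma adjusted p = 0.0532), ROM1 of -0.49, the TspanC8 member TSPAN17 of -0.43 and TSPAN31 of 0.09. TSPAN5, TSPAN12 and CD53 no longer passed after median-of-ratios scaling (limma adjusted p = 0.0948, 0.103 and 0.201). TSPAN5 did not pass when miR-187 replicate 1 (adjusted p = 0.138) or miR-NC replicate 2 (0.0995) was omitted, nor TSPAN12 without miR-187 replicate 2 (0.0936), nor CD53 without miR-187 replicate 1 (0.115) or replicate 2 (0.154). TSPAN12 and CD53 were not tested without either miR-NC library, and TSPAN6 passed without miR-NC replicate 1 (0.01995), with TPM (0.0402) and with a pseudocount of 0.1 (0.0491).

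Genes whose proteins bind tetraspanins at the membrane were examined next. The counts of this list and of each list below stand beside 27.3% lower and 1.49% higher over all tested genes. Of 22 listed partners 10 were tested, and 2 fell, 0 rose (0 at an unadjusted p under 0.05 by limma) and 8 did not pass, with a median difference of -0.34. HBEGF, the growth factor precursor that CD9 associates with, fell to 2.45 and 2.49 FPKM with miR-187, against 5.01 and 6.39 FPKM with miR-NC (-0.94 ± 0.24, SE, limma adjusted p = 0.0131). The other one was ICAM1, an adhesion receptor for leukocytes that was chosen after its values were seen, at 1.24 and 0.952 FPKM with miR-187, against 2.74 and 3.51 FPKM with miR-NC (limma adjusted p = 0.0111). TIMP1, a protease inhibitor that binds CD63, read 2074 and 2251 FPKM with miR-187, against 2339 and 2316 FPKM with miR-NC (-0.11, limma adjusted p = 0.304). The integrin gene ITGB1 had 13.6 and 14.6 FPKM with miR-187, against 10.6 and 13.3 FPKM with miR-NC (0.23, limma adjusted p = 0.356), and it passed as higher after median-of-ratios scaling (0.69, adjusted p = 0.0274). The CD151 partner ITGA3 (-0.60), the adhesion receptor gene ADGRG1 (-0.63) and the growth factor receptor gene MET (-0.28) did not pass. HBEGF and ICAM1 did not pass after median-of-ratios scaling (0.0711 and 0.0650). HBEGF was lost without either miR-187 library (0.110 without replicate 1, 0.121 without replicate 2) or miR-NC replicate 2 (0.0521), and ICAM1 without miR-187 replicate 2 (0.123) or miR-NC replicate 2 (0.0707), whereas ITGA3 (0.0288) and ADGRG1 (0.04996) passed without miR-NC replicate 1.

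ADAM10 itself, the protease that TSPAN14 and TSPAN15 carry, read 0.913 and 0.647 FPKM with miR-187, against 1.04 and 1.67 FPKM with miR-NC (-0.40, limma adjusted p = 0.188). It reached 1 FPKM in the miR-NC libraries only and so entered the test only by being higher there, and without it the median of the 9 other tested partners was -0.28. It was chosen as the partner of these members. Of 9 listed ADAM10 substrates 5 were tested, and 2 fell, 0 rose (1 at an unadjusted p under 0.05 by limma) and 3 did not pass, with a median of -0.54. The VE-cadherin gene CDH5 fell to 4.45 and 3.37 FPKM with miR-187, against 9.003 and 12.3 FPKM with miR-NC (-1.24 ± 0.24, SE, limma adjusted p = 0.00320). The receptor kinase gene AXL fell to 714 and 586 FPKM with miR-187, against 1007 and 884 FPKM with miR-NC (-0.54 ± 0.11, SE, limma adjusted p = 0.00423), a call that was lost after median-of-ratios scaling (-0.05, adjusted p = 0.881). CD44, the hyaluronan receptor gene, read 113 and 86.9 FPKM with miR-187, against 72.7 and 85.6 FPKM with miR-NC (0.32, limma adjusted p = 0.112), and passed as higher after median-of-ratios scaling (0.81, adjusted p = 0.0238). APP (-0.74) and CDH2 (-0.33) did not pass, though APP passed without miR-NC replicate 1 (0.00923).

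Because CD9, CD63 and CD81 mark extracellular vesicles, genes that form such vesicles were examined too. Of 19 listed genes 14 were tested, and 1 fell, 0 rose (0 at an unadjusted p under 0.05 by limma) and 13 did not pass, with a median of -0.19. SDCBP, the gene of syntenin, an adaptor that binds CD63 and syndecans, fell to 179 and 164 FPKM with miR-187, against 363 and 364 FPKM with miR-NC. Its log2 difference was -1.08 ± 0.10 (SE, limma adjusted p = 4.3e-05), it passed with each library left out, and median-of-ratios scaling gave -0.59 (adjusted p = 0.0448). The ESCRT genes TSG101 (-0.19) and HGS (-0.12), the ESCRT-associated gene PDCD6IP (-0.55), the flotillin gene FLOT1 (-0.12) and RAB11A (0.01) did not pass. PDCD6IP passed without miR-NC replicate 1 (0.0251) and with TPM (0.0481).

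Weibel-Palade body genes were examined because CD63 is a membrane protein of these granules. Their main cargo VWF was hardly detected, at 0.0134 and 0.0224 FPKM with miR-187, against 0.0409 and 0.0770 FPKM with miR-NC. Of 8 listed genes 3 were tested, and 2 fell, 0 rose (0 at an unadjusted p under 0.05 by limma) and 1 did not pass, with a median of -0.87. SELP, the P-selectin gene, read 0.652 and 0.674 FPKM with miR-187, against 1.80 and 2.34 FPKM with miR-NC (-0.88 ± 0.22, SE, limma adjusted p = 0.0122), and passed the filter only through its miR-NC libraries. Without SELP, 1 of 2 tested genes fell, with a median of -0.65. The small GTPase gene RAB3B fell to 4.43 and 4.78 FPKM with miR-187, against 8.50 and 10.1 FPKM with miR-NC (-0.87 ± 0.22, SE, limma adjusted p = 0.0122). SYTL4 (-0.43) did not pass. Median-of-ratios scaling ended both calls (adjusted p = 0.0683 for SELP and 0.0918 for RAB3B). SELP (0.0531 and 0.0548) and RAB3B (0.123 and 0.102) were lost without miR-187 replicate 1 or 2, and SELP was not tested without either miR-NC library.

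**Figure D4:**
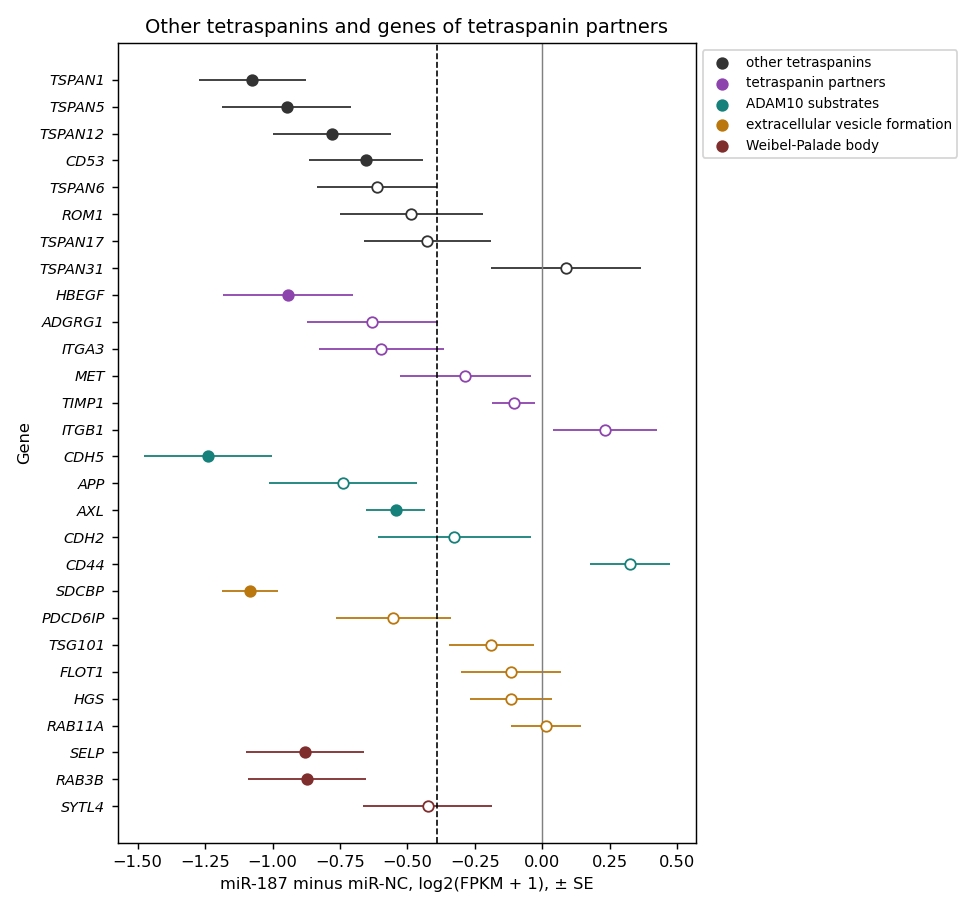
Differences of the other tested tetraspanins and of the named genes of the 4 further lists, miR-187 minus miR-NC on the log2(FPKM + 1) scale with SE (limma). Filled points had an adjusted p under 0.05, open points did not, and the dashed line marks the median of all tested genes (-0.39). Every filled point lies below 0, as deposited, with CDH5 lowest (-1.24).

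The line's markers were checked as well. Of 10 endothelial markers 9 had values and 6 were tested. ESAM, NOS3 and CDH5 fell, and TIE1, ERG and TEK did not pass (limma adjusted p = 0.0501, 0.139 and 0.234). ESAM, a junction protein gene, was the most abundant, at 56.1 and 55.6 FPKM with miR-187, against 104.9 and 124 FPKM with miR-NC, and made up most of the list, which summed to 71.4 and 69.4 FPKM with miR-187, against 132 and 161 FPKM with miR-NC. VWF and KDR stayed below 0.15 FPKM in every library and CLDN5 was listed at 0, whereas CDH5 and TIE1 were above 3 FPKM in every library. PECAM1 was not analysed here. The 6 epithelial markers summed to 4297 and 4395 FPKM with miR-187, against 4230 and 4115 FPKM with miR-NC. The abundant keratin genes KRT8 and KRT18 made up nearly all of these sums. CDH1 and SFTPC were listed at 0 in all 4 libraries, and EPCAM and KRT19 reached at most 0.385 FPKM. The 3 endothelial markers that fell were lower in the same libraries as CD82 and CD81, as any gene lower with miR-187 must be. This shows no link between them, and the part of these markers in the differences of the 9 genes was not tested. Of 7 markers of leukocytes and fibroblasts 4 were listed at 0 in all 4 libraries, 1 (LYZ) was tested and fell, and the other 2 stayed under 0.11 FPKM.

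The genes outside these lists whose pattern lay nearest to that of CD82 were SMARCD2, HYAL2 and ENSG00000287097. Nearness was the Euclidean distance between log2(FPKM + 1) values over the 4 libraries, each gene set relative to its miR-NC mean. The distances were 0.123, 0.196 and 0.271. HYAL2, the gene of a hyaluronidase anchored at the cell surface, read 59.8 and 52.6 FPKM with miR-187, against 193 and 196 FPKM with miR-NC. SMARCD2, a subunit gene of SWI/SNF chromatin remodelling complexes, read 0.457 and 0.455 FPKM with miR-187, against 3.90 and 3.91 FPKM with miR-NC. It passed the filter only through its miR-NC libraries. The pseudocount of 1 reduces its difference more than that of CD82, so its nearness depends on that setting. With 4 libraries in 2 groups such a likeness reflects mainly the size of the group difference.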

How the data were processed

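EA.hy926 cells with miR-187 or miR-NC were profiled by mRNA sequencing, 2 libraries per group. The authors deposited 1 FPKM value per gene and library, and the submitters' processing notes name HISAT2, StringTie, DESeq2 and hg19, with no versions. No count of reads was used. Low values of library pairs were examined for single-read steps, and at most 3.13% of low genes shared a modal ratio, so whole reads were not recovered and depth is unknown. Group and replicate came from the sample titles.

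After 49 pseudoautosomal copies were left out, 58611 of 62443 gene identifiers matched a symbol. Values were analysed as log2(FPKM + 1), which understates differences of low genes. Genes that reached 1 FPKM in 2 or more libraries were fitted with limma 3.58.1 (R 4.3.3) with an intensity trend, two-sided, with 2 residual and 10.9 prior degrees of freedom, a threshold of 0.05 and Benjamini-Hochberg adjustment over all tested genes. An exact permutation test was not used. Other scalings, another pseudocount, no filter, a replicate block and leaving out each library were the alternatives.

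The members and lists were chosen with earlier results of these data known. Named were all 9 genes, every tested other tetraspanin, and from each further list the up to 6 tested genes with the highest mean FPKM, whichever way they moved. From the Weibel-Palade body list and from the leukocyte and fibroblast markers 1 gene each is not reported here, and their counts and medians are over the other genes. The longest basic 3' UTR per gene (GENCODE 29, GRCh38) was searched, no coordinate was converted from hg19, and miRNA and promoter sequences are from RefSeq (GRCh38.p14). Protein sequences were not used here. The fit was also run on simulated data, but no outcome is given here, so that run says nothing about the calls above. Python 3.11.15, pandas 2.3.3, numpy 2.4.6 and matplotlib 3.10.9 were used.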

Additional observations from a re-analysis of the deposited data

How the results depend on the processing

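Median-of-ratios scaling and quantile normalization had the widest effect. Genes called lower numbered 2236 as deposited, 303 with median-of-ratios scaling and 319 with quantile normalization, and genes called higher 122, 383 and 293. Under median-of-ratios scaling and under quantile normalization the same counts resulted for the lists: 1 other tetraspanin lower, 0 partners lower and 1 higher, 1 ADAM10 substrate lower and 1 higher, and 0 Weibel-Palade body genes lower (limma, with 2 partners and 2 Weibel-Palade body genes lower at an unadjusted p under 0.05 in both settings). The median of the 9 members moved to -0.0275 with median-of-ratios scaling and -0.17 with quantile normalization. CD9 and CD151 changed sign with median-of-ratios scaling and CD151 also with quantile normalization, and of the 9 differences 8 moved by more than the spread between replicates there, against 1 with TPM. CD82 was -1.87 with TPM and -1.41 with quantile normalization, and CD81 -1.21 and -0.75. Vesicle formation genes called lower numbered 3 with TPM, and other tetraspanins called lower 5 with TPM and 5 with a pseudocount of 0.1. When genes that reached 1 FPKM in only 1 group were left out, a choice made after seeing the data, 2 other tetraspanins and 1 Weibel-Palade body gene were lower. Without the filter limma called 0 of 25001 genes, and so 0 in every list, with 4189 at an unadjusted p under 0.05. The cause was not tested.

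With 1 library left out, the lone remaining sample of its group is assumed to vary like the other group. Genes called lower ranged from 822 to 2719 and genes called higher from 72 to 119. The lists ranged from 1 to 3 for other tetraspanins lower, from 0 to 4 for partners lower, from 2 to 3 for ADAM10 substrates lower, from 1 to 3 for vesicle formation genes lower and from 0 to 1 for Weibel-Palade body genes lower. The median of the 9 members ranged from -0.65 to -0.40, over 8 or 9 of them, and CD151 stood at 0.0025 without miR-NC replicate 2.

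The replicate number as a block gave 2491 lower and 142 higher genes, 2 vesicle formation genes lower and 3 ADAM10 substrates lower, with APP passing (limma adjusted p = 0.0314). Libraries of the same number did not deviate together (correlation -0.06 across genes). The labels do not say whether the numbers pair the samples, and 2 libraries per group cannot settle it. A 7-mer seed match in any annotated transcript was held by 3 of the 9 members, against 2 in the 3' UTR searched.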
